A study of Mus musculus with 12 samples.

Results

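The MBD2 peaks of day 5 C2C12 myotubes were set against those of day 0 cells, 1 library each, and the 114 myotube peaks with no day 0 peak under them were described in depth. Peaks on chromosomes 1 to 19 and X were kept up to a local background of 10 fragments per base, and a myotube peak was matched when it shared at least 1 bp with a day 0 peak. This kept 261 myotube and 14919 day 0 peaks, 15180 of the 94584 peaks in the 8 lists of the series. Of the 261 myotube peaks, 114 had no day 0 peak (called myotube-only) and 147 had 1 or more (called shared). The choice of these 114 rests on the MBD2 calls alone, so their genes, place, sequence and H3K4me3 were not used to choose them.

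The cells were C2C12, an established line of mouse myoblasts that forms multinucleated myotubes by fusion. Per the labels' growth protocol, differentiation took place in medium with 2% horse serum. Myotubes and the unfused reserve cells of day 5 were parted by a light trypsin treatment, and the sources used here do not give the purity of the fractions. The sample titles shorten both day 5 names, and the myotube sample was read from the series' design text. The day 0 cells were taken at the start of differentiation. The assay was CUT&RUN, where a nuclease tethered to an antibody cuts out the bound fragments, for MBD2, H3K4me3 and a control IgG in 4 cell states; the 4 IgG libraries were not analysed here. MBD2 carries a domain that binds methylated CpG and recruits NuRD, a complex with histone deacetylase and nucleosome remodelling subunits, and is best known for acting at silenced, methylated promoters. H3K4me3 is the histone mark of active and poised promoters, and broad domains of it often lie over genes that define a cell type. No library has a replicate, so no difference below has a replicate check or a p-value. Intervals are exact 95% Clopper-Pearson intervals that cover counting error only, and PCR reads without molecular identifiers are not independent molecules.

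Of the myotube-only sites, 7 are shown first because the gene results turn on them: the 3 promoters and the 1 distal site of highest myotube fold enrichment, and the sites at muscle genes of the lists used below. Each is the 300 bp centred on the MBD2 summit, on the plus strand of mm10, with every CpG in capitals. The Tmem109 window (chr19:10881367-10881666) and the Dysf window (chr6:84008573-84008872) are rich in CpG, whereas the Acta1 window (chr8:123895500-123895799) holds 3 CpG and the Pvalb window (chr15:78205248-78205547) holds 2. The others lie at Mmp15 (chr8:95351704-95352003), before Klhl40 (chr9:121776356-121776655) and 69591 bp from the start of Cryaa (chr17:31747389-31747688).
Tmem109: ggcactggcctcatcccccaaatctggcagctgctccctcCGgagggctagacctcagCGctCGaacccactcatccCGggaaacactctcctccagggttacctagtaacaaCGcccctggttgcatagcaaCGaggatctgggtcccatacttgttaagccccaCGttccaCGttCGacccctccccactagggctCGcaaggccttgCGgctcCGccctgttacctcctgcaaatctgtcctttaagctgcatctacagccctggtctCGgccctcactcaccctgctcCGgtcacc
Acta1: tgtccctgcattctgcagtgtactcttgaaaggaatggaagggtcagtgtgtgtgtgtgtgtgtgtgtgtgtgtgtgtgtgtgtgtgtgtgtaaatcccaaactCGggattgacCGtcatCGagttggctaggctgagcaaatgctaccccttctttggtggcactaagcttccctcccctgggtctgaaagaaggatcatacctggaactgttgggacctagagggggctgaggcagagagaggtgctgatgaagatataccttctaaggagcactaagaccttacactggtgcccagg
Mmp15: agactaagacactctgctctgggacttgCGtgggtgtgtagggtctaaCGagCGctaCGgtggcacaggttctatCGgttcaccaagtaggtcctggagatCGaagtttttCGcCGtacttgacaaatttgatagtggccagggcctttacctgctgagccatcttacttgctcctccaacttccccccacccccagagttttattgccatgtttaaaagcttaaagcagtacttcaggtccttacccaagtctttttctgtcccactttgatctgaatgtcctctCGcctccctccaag
Site nearest Cryaa: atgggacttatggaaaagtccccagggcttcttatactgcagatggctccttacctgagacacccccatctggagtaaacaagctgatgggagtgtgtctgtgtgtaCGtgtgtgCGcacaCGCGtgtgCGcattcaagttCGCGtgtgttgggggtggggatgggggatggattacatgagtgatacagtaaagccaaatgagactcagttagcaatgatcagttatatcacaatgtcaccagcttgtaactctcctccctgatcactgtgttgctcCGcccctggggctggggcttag
Dysf: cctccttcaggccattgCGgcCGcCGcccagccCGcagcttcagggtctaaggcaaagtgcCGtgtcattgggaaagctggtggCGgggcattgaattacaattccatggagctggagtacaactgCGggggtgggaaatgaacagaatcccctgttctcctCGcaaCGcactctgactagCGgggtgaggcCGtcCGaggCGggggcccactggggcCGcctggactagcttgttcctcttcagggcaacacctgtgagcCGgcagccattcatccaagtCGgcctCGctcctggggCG
Pvalb: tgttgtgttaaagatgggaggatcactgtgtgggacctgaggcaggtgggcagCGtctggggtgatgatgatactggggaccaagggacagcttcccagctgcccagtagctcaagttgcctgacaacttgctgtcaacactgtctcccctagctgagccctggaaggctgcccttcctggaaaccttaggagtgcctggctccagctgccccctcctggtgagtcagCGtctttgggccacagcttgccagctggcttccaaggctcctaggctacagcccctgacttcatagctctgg
Site before Klhl40: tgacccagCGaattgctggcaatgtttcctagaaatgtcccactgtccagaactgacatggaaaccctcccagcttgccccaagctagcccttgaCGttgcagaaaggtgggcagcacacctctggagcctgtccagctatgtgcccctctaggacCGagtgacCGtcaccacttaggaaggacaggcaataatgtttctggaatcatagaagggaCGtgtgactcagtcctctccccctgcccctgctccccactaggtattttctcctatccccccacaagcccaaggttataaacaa

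The 2 libraries differed in what a peak call required. The lowest local background was 0.776 fragments per base in the myotube list and 0.360 in the day 0 list, and the lowest summit pileup, the number of fragments stacked over a summit, was 7 in myotubes and 4 at day 0. Fold enrichment is the authors' ratio of summit pileup to local background, read here with 1 added to both. It ran between 3.30 and 13.4 in the myotube list and between 2.91 and 116 in the day 0 list. Peaks were 296 bp wide in myotubes and 391 bp at day 0 (medians). The sources used here give no read totals. A peak's absence is therefore a missing call at that library's depth, not a measured loss of MBD2. In myotubes the highest local background inside the limit was 7.02 and the lowest outside it 38.5, so no peak lay near the limit of 10. At the matching edge, a peak near Agap1 was shared through 1 bp, and the Zfp444 promoter peak was myotube-only with a gap of 8 bp to a day 0 peak. The H3K4me3 lists also differed in length, with 26024 peaks in myotubes and 19206 at day 0. A mark called in 1 state alone is thus likewise a matter of calls, not a measured gain or loss. H3K4me3 at myotube marker promoters parted myotubes from day 0 cells: 7 of 7 (Myog, Myh3, Ckm, Acta1, Mymk, Tnnt1 and Atp2a1) were marked in myotubes and 0 of 7 at day 0. All 7 were also marked at day 1 and all but Myh3 in reserve cells, so their presence does not part myotubes from those states. Of the 4 myoblast, 4 reserve-cell and 3 fibroblast markers, 3, 3 and 2 were also marked in myotubes, and all 4, 4 and 3 at day 0.

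Myotube-only peaks lacked the highest folds of their library, and the bulk of both groups overlapped. Their fold enrichment lay between 3.75 and 7.43 with a median of 5.08, and that of the shared peaks reached 13.4 with a median of 5.63. Pileups ran between 7 and 30 fragments for myotube-only peaks and between 7 and 27 for shared peaks. The median gap from a myotube-only peak to the nearest day 0 peak was 17896 bp. Of the 114, 71 lay over 10 kb away and 22 over 100 kb, while 19 lay within 1 kb and 8 of those within 100 bp. The gap of sites placed at random was not computed, so these values do not say whether the peaks lay near or far. In the other 2 states, 0 of 114 overlapped an MBD2 peak at day 1 or in reserve cells, which allows a share of up to 2.63% taking 3 counts as the limit of a count of 0, where 49 and 19 of the 147 shared peaks did; those lists held only 425 and 69 kept peaks.

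**Figure D1:**
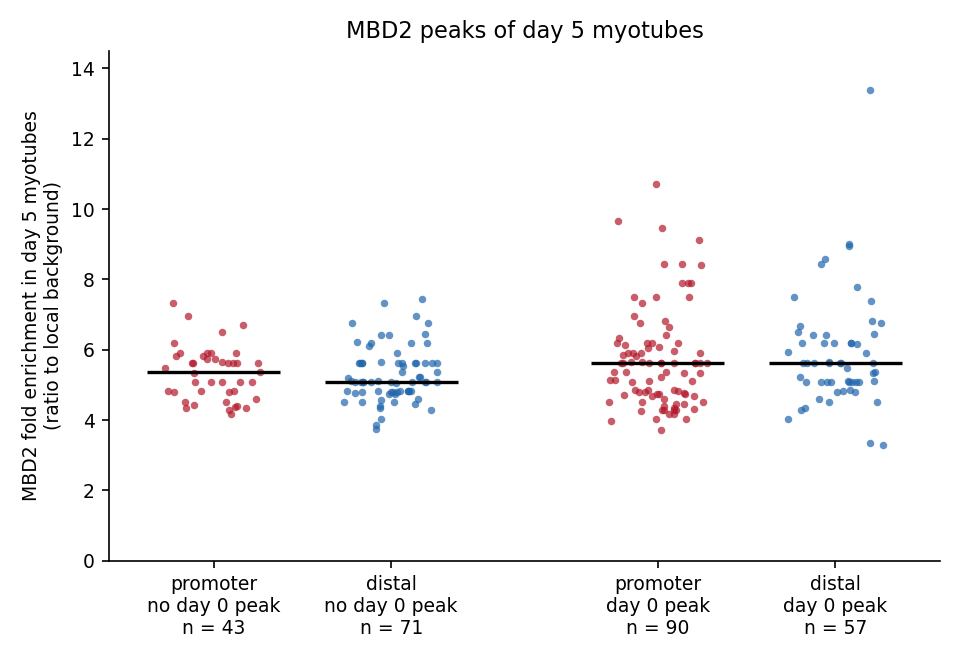
MBD2 fold enrichment (ratio to the local background, vertical axis) of each day 5 myotube peak, at promoters (red) and elsewhere (blue), for the 114 peaks with no day 0 peak at the left and the 147 with a day 0 peak at the right; each point is a peak and each black line a median. No peak lacking a day 0 partner exceeded 7.43, and the peaks above that are all at the right.

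The strongest promoters under myotube-only peaks were those of Tmem109, Acta1, Mmp15, Sod2 and Zfp703. A promoter is the 1 kb either side of any annotated transcript start. The 43 promoter peaks covered starts of 52 genes, 0.0966% of the 53843 annotated genes, and 41 of these genes (0.0761%) had no MBD2 peak anywhere in their promoters at day 0. A promoter peak in both states was found for 130 genes, the rest of the 52 among them. For 3376 genes (6.27%) there was one at day 0 and none in myotubes. The peak at Tmem109, which encodes a membrane protein of the nucleus and endoplasmic reticulum, had a fold of 7.32 in myotubes and no peak at day 0. Acta1, skeletal muscle actin and the main thin-filament protein, came next with a fold of 6.97 and a pileup of 12, its peak at chr8:123895494-123895762 with the summit 899 bp upstream of the start. Mmp15, a membrane-bound matrix protease, had 6.69, and Sod2, the mitochondrial superoxide dismutase, 6.50. The Mmp15 peak lay 172 bp from a day 0 peak, that of Sod2 46915 bp and that of Acta1 169729 bp. Zfp703, a transcriptional co-repressor, had a fold of 6.19.

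Muscle genes among them were Acta1, Dysf and Pvalb. Of 45 listed sarcomere and contraction genes, 1 (Acta1) had a myotube-only promoter peak, and of 19 genes of calcium handling and membrane repair, 2 had one, against 40 of all 21755 protein-coding genes. These were Pvalb, the calcium buffer of fast fibres, and Dysf, which encodes the membrane repair protein dysferlin, both with a fold of 5.89. The Dysf peak lay 96 bp from a day 0 peak, and the Dysf promoter carried MBD2 calls in both states. The summit at Pvalb lay 1002 bp after the start, at the edge of the promoter window, and 30743 bp from any day 0 peak. Klhl40, whose product stabilises thin-filament proteins, had a peak of fold 6.76 at chr9:121776338-121776563, in an annotated exon 1185 bp before the Klhl40 start and 103492 bp from a day 0 peak. Of 26 genes of methyl-CpG readers and NuRD, 1 had such a peak: the promoter shared by Rbbp4, the histone-binding NuRD subunit, and Zbtb8os, with a fold of 4.29. No gene of the other 7 lists (fusion, myogenic regulators, cell cycle, mitochondrial import and carriers, glycolysis and energy, the Wnt pathway and housekeeping) had a myotube-only promoter peak. Each held only 12 to 30 genes, too few for a count of 0 to stand apart from 40 of all 21755 protein-coding genes. Pfkfb3 and Tomm34, named below, are outside these lists, so the counts do not speak for the themes as a whole. By contrast with MBD2, H3K4me3 lay on 43 of the 45 sarcomere promoters in myotubes (30.1% of all genes) and on 11 at day 0, with 32 marked in myotubes and not at day 0, where 1.88% of all genes were.

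Further named promoters followed in order of fold. Mthfd2, a mitochondrial enzyme of folate metabolism, and Specc1l, which links actin and microtubules, each had a fold of 5.89, and Cdpf1 had 5.83. Hook2, a dynein adaptor, had 5.72 and Spsb4, a ubiquitin ligase adaptor, 5.65. Cenpm (a centromere protein), Lims1 (the integrin adaptor PINCH1), Rell1, Smad7 (the inhibitory SMAD of TGF-beta signalling) and Tomm34 (a cytosolic helper of mitochondrial import) all had 5.63. Ties of this kind arise because a fold is a whole-number pileup over a background that many peaks share. Sqle, the squalene epoxidase of sterol synthesis, had 5.49 and Rpp40, an RNase P subunit, 5.36. Btbd11, Herpud1 (endoplasmic reticulum protein degradation), Inip, Mustn1 (a nuclear protein of developing muscle and bone) and Usp20 (a deubiquitinase) had 5.07 each. Pfkfb3, the glycolytic switch enzyme, and Wdfy1 had 4.82, and Wasf2, which drives actin branching, had 4.78. Wdr38 had 4.59 and Hmgxb3 and Zfp444 had 4.51. Lower in the list were Hacd1, Lrig1, Chka, Grem1, Magi1 and Cnksr1, between 4.42 and 4.18, and 5 lay at predicted genes alone.

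Every one of the 43 myotube-only promoter peaks (interval 91.8 to 100) lay under an H3K4me3 peak of myotubes, and 37 of them under an H3K4me3 peak of day 0 cells as well. Myotube H3K4me3 also lay over 88 of the 90 shared promoter peaks (97.8%, 92.2 to 99.7). It lay over 2350 of the 2867 day 0-only promoter peaks (80.5 to 83.4). Among the 261 day 0 peaks of highest fold, taken after seeing the data, it lay over 120 of 135 promoter peaks (88.9%, 82.3 to 93.6). The mark was thus common under MBD2 promoter peaks of every group. At Tmem109 the H3K4me3 fold was 33.3 in myotubes and 48.1 at day 0, and at Sod2 it was 33.4 in myotubes and 54.0 at day 0. Folds of separate libraries are not on a common scale, so these values describe the mark within each list. Acta1 was one of the 6 promoter peaks with H3K4me3 in myotubes and none at day 0: its mark had a fold of 41.4 in myotubes and no peak at day 0, with 4.51 at day 1 and none in reserve cells at the MBD2 peak itself. Usp20 had 45.9, Cnksr1 16.8 and Pvalb 5.81 in myotubes, with no H3K4me3 peak at day 0, at day 1 or in reserve cells. The other 2 were promoters of predicted genes. Mustn1 had 34.8 in myotubes and 9.26 at day 0, and Dysf 21.2 in myotubes and 11.7 at day 0. Herpud1 had 112 in myotubes, the highest fold of the myotube H3K4me3 list, and 51.7 at day 0.

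**Figure D2:**
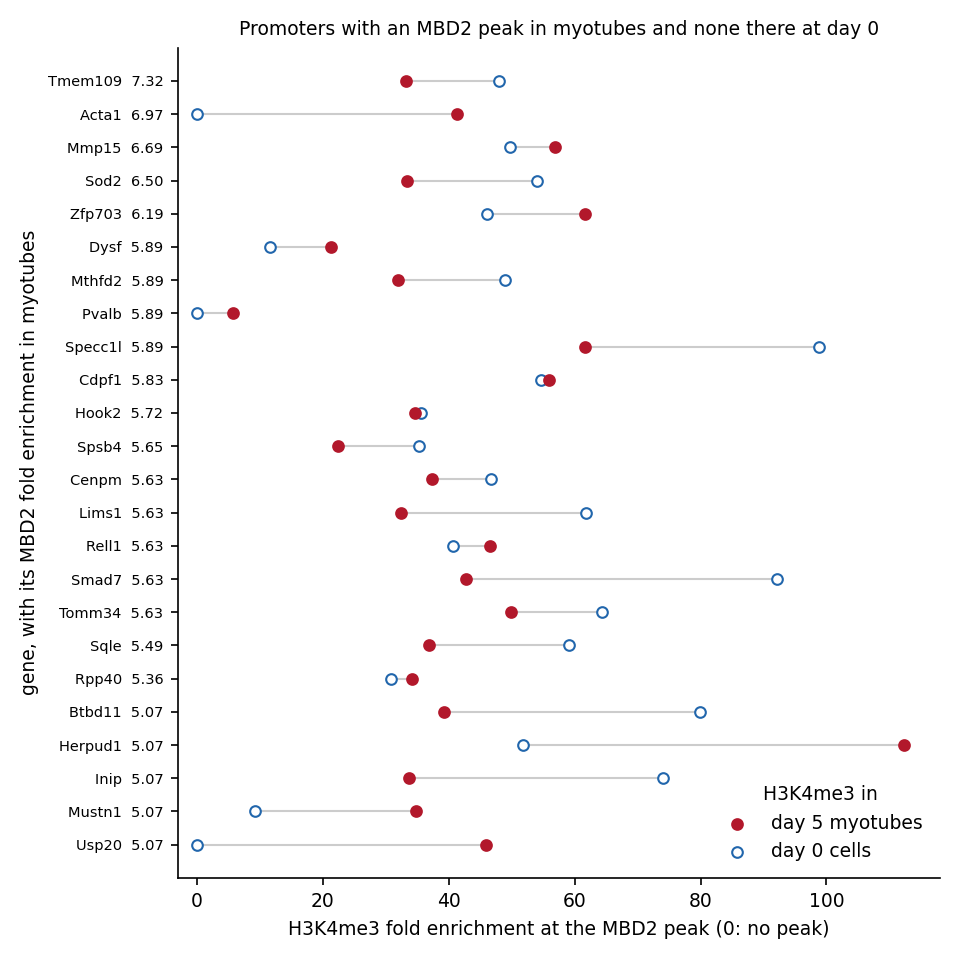
H3K4me3 fold enrichment over the myotube-only MBD2 peaks with an MBD2 fold of at least 5 at promoters of named genes, in day 5 myotubes (filled red) and day 0 cells (open blue), with 0 for no H3K4me3 peak; rows run by MBD2 fold in myotubes, given beside each gene, from Tmem109 (7.32) to Usp20 (5.07). Acta1, Pvalb and Usp20 sit at 0 at day 0, and the other genes carry the mark in both states; the 2 libraries are not on a common scale.

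Away from promoters, H3K4me3 of myotubes was common under myotube-only MBD2 peaks. Of all 114, promoter peaks included, 83 overlapped a myotube H3K4me3 peak (72.8%, interval 63.7 to 80.7). The same held for 125 of the 147 shared peaks (85.0%, 78.2 to 90.4) and 35.5% of the 14774 day 0 peaks without a myotube peak. The day 0 list is far longer, and among its 261 peaks of highest fold, taken after seeing the data, it was 63.6% (57.4 to 69.4). Among the 71 distal myotube-only peaks the share was 56.3% (44.0 to 68.1), against 64.9% of the 57 shared distal peaks and 24.4% of the 11907 distal day 0-only peaks. For the 126 distal peaks among the 261 day 0 peaks of highest fold it was 36.5% (28.1 to 45.6). The MBD2 summit lay a median of 269 bp from the H3K4me3 summit over the 83 peaks. The remaining 31 of the 114 had H3K4me3 neither in myotubes nor at day 0, and 0 of 114 had it at day 0 but not in myotubes, which by the same limit of 3 counts allows a share of up to 2.63%.

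At 32 of the 114 sites (28.1%, interval 20.1 to 37.3) H3K4me3 was called in myotubes and not at day 0, against 18 of 147 shared sites (12.2%, 7.42 to 18.7) and 6.50% of day 0-only sites. The myotube H3K4me3 list is the longer one, and with both lists cut to equal numbers by fold it was 24 of the 114 (21.1%, 14.0 to 29.7). Among distal sites the shares were 36.6% (25.5 to 48.9) for myotube-only, 29.8% (18.4 to 43.4) for shared and 7.36% for day 0-only peaks, so myotube-only and shared distal sites differed by less than their counting error. At 31 of the 32 sites no H3K4me3 peak lay at day 1 or in reserve cells either, Acta1 at day 1 being the exception. Counted as H3K4me3 peaks, 27 of the 83 under myotube-only MBD2 (32.5%) lacked a day 0 partner, close to the 36.3% of all 26024 myotube H3K4me3 peaks that lacked one, and under shared MBD2 it was 13 of 123 (10.6%). The share under myotube-only peaks was therefore near that of the whole list, and that under shared peaks was below it. Peaks of the whole list were narrower, with medians of 463.5 bp without and 1910 bp with a day 0 partner. Under myotube-only MBD2 the medians were 1339 and 2949 bp, so the whole list is not a matched background.

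Some of these 32 sites are described here, chosen after their values were seen. At 27 of the 32 the whole myotube H3K4me3 peak overlapped no day 0 H3K4me3 peak, and at 5, Slc4a3 and Lynx1 among them, it reached one beyond the MBD2 site. The intron of Slc4a3, an anion exchanger gene of heart and brain, had an MBD2 fold of 4.51 inside a myotube H3K4me3 domain 12465 bp wide with a fold of 58.0. The site before Klhl40 sat in a domain 7107 bp wide with a fold of 44.0 and no day 0 peak under any of it. An exonic site within Lynx1, a modulator of nicotinic acetylcholine receptors, had an MBD2 fold of 4.59 and an H3K4me3 fold of 33.6 over 3285 bp. An intron of Hjurp had an MBD2 fold of 5.53 with an H3K4me3 fold of 15.1 over 2112 bp. Over the 32 sites the myotube H3K4me3 fold had a median of 6.72 and a range of 3.55 to 58.0, and the median width was 1484.5 bp. Where the mark was present in both states its myotube fold under the 51 MBD2 peaks had a median of 34.8 and its width one of 2934 bp.

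**Figure D3:**
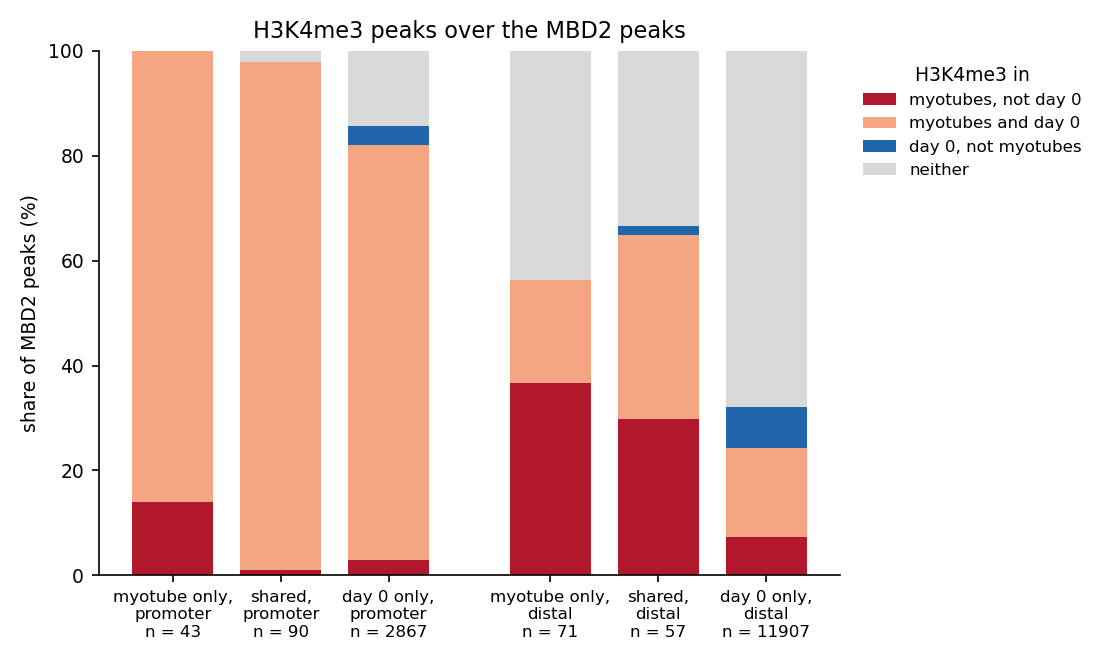
Share of MBD2 peaks (vertical axis, percent) by the H3K4me3 peaks over them: in day 5 myotubes and not at day 0 (red), in both (pale), at day 0 and not in myotubes (blue) or in neither (grey). At promoters at the left, all myotube-only and 97.8% of shared peaks carry the mark in myotubes, and 14.3% of day 0-only peaks carry it in neither state. At distal sites at the right the red share is 36.6% of myotube-only, 29.8% of shared and 7.36% of day 0-only peaks.

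The distal myotube-only peaks of highest fold lay at other kinds of site. The strongest of all 114, with a fold of 7.43 and a pileup of 15, was intergenic at chr17:31747399-31748116, with Cryaa, a lens crystallin gene, as nearest protein-coding gene and a weak myotube H3K4me3 peak of fold 5.69. Introns of Ccdc141 (7.32) and Gja5 (6.76, encoding the gap junction protein connexin 40) had no H3K4me3 peak in any of the 4 states. An intron of Uck2, a uridine kinase gene, had a fold of 6.97 with H3K4me3 in all 4 states and lay 123 bp from a day 0 peak. The site before Klhl40 completes the 5.

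By place, 37.7% of myotube-only peaks lay at promoters (43 of 114, interval 28.8 to 47.3), 37 in introns, 5 in exons and 29 between genes. The promoter share was 61.2% among shared peaks (90 of 147, 52.8 to 69.1) and 19.4% among day 0-only peaks. The day 0 list is far longer than the myotube list and reaches peaks of lower pileup, so the 261 day 0 peaks of highest fold were described beside the 261 myotube peaks, a choice made after seeing the data. At equal numbers the promoter shares were alike, 51.0% in myotubes (44.7 to 57.2) and 51.7% at day 0 (45.5 to 57.9), and the 261 day 0 peaks were wider (median 837 bp) than the 261 myotube peaks (296 bp). The H3K4me3 lists were not cut for this comparison, and that of myotubes is the longer. H3K4me3 of myotubes but not of day 0 covered 19.2% (14.6 to 24.5) of the myotube peaks and 6.90% (4.14 to 10.7) of these day 0 peaks. H3K4me3 of day 0 but not of myotubes covered 0.383% (0.00970 to 2.12) of the myotube peaks and 6.13% (3.54 to 9.76) of these day 0 peaks.

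CpG content followed place more than state. Promoter myotube-only peaks had a median of 6.03 CpG per 100 bp and distal ones 1.31, giving 1.97 over the 114. Shared peaks had 3.10 over all, 5.20 at promoters and 1.20 at distal sites, and day 0-only peaks 1.23 over all, 3.96 at promoters and 1.06 at distal sites. For comparison, the 32619 RefSeq promoter windows of mm10, from 250 bp before to 50 bp after each start, had a median of 2.33. Methylation was not measured here, so how many of these CpG were methylated is not known. Only 3 of the 114 peaks held no CpG at all, and 31 held more than 5 per 100 bp.

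The clearest sequence difference between the states was in AP-1 type sites at distal peaks. AP-1 factors, dimers of Jun and Fos proteins that respond to growth signals and act at enhancers, bind TGACTCA or its reverse complement TGAGTCA. The pattern searched, TGANTCA, is wider and also counts TGAATCA and TGATTCA. It was searched in the 300 bp centred on each summit and reads the same on both strands. It lay in 4 of the 71 distal myotube-only windows (5.63%, interval 1.56 to 13.8), in 14.0% (6.26 to 25.8) of the 57 shared distal windows and in 4781 of the 11907 distal day 0-only windows (40.2%, 39.3 to 41.0). At equal numbers it lay in 12 of the 128 distal myotube windows (9.38%, 4.94 to 15.8) and in 57 of the 126 distal day 0 windows among the 261 of highest fold (45.2%, 36.4 to 54.3). The myotube shares were near that of the RefSeq promoter windows, 7.85%, which are of the same length but lie at promoters. No distal or GC-matched windows were searched, so the share to be found at distal sites in general is not known. At promoters it was in 11.6% of myotube-only, 7.78% of shared and 15.0% of day 0-only windows. With all day 0 peaks, at promoters and elsewhere, split into 5 equal groups by day 0 fold, the share was 39.5%, 41.7%, 35.3%, 31.2% and 28.0%, highest group first. It was thus lower in the weaker groups, and above the 7.85% of promoter windows in each group. The strongest distal day 0 peak, at chr1:193413942-193414241 near Camk1g, had a day 0 fold of 88.1 and no myotube peak. It held 2 matches to the pattern, TGAATCA and TGACTCA, shown in capitals on the plus strand of mm10.
Site nearest Camk1g: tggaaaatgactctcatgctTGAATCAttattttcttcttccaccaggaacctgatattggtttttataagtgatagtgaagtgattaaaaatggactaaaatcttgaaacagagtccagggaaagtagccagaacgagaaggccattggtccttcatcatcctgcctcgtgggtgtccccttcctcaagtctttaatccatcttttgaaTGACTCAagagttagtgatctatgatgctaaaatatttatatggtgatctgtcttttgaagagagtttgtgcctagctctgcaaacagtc

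The Acta1 window above held none, and those at Pvalb and before Klhl40 held 1 each. A match is a string of letters, and binding of the factor was not measured.

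E-boxes, the sites of the myogenic factors MyoD and myogenin, differed at distal peaks for 1 of 2 kinds. CAGGTG, read on either strand, lay in 25.4% (15.8 to 37.1) of distal myotube-only windows and 10.7% of distal day 0-only windows. At equal numbers it lay in 23.4% (16.4 to 31.7) of distal myotube windows and 7.14% (3.32 to 13.1) of distal day 0 windows, against 20.3% of RefSeq promoter windows. The palindrome CAGCTG lay in 19.7% (11.2 to 30.9) of distal myotube-only and 20.1% of distal day 0-only windows, and its share in the promoter windows was 16.4%. GC content moved with these differences: its median was 51.4% in distal myotube-only peaks and 45.1% in distal day 0-only peaks, and its part in the motif shares was not tested. GGAATG, the core bound by TEAD factors, on either strand, lay in 22.5% of distal myotube-only and 23.3% of distal day 0-only windows, against 14.6% of promoter windows. The MEF2 motif lay in 1 and the CArG box in 2 of all 114 myotube-only windows, too few to compare.

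**Figure D4:**
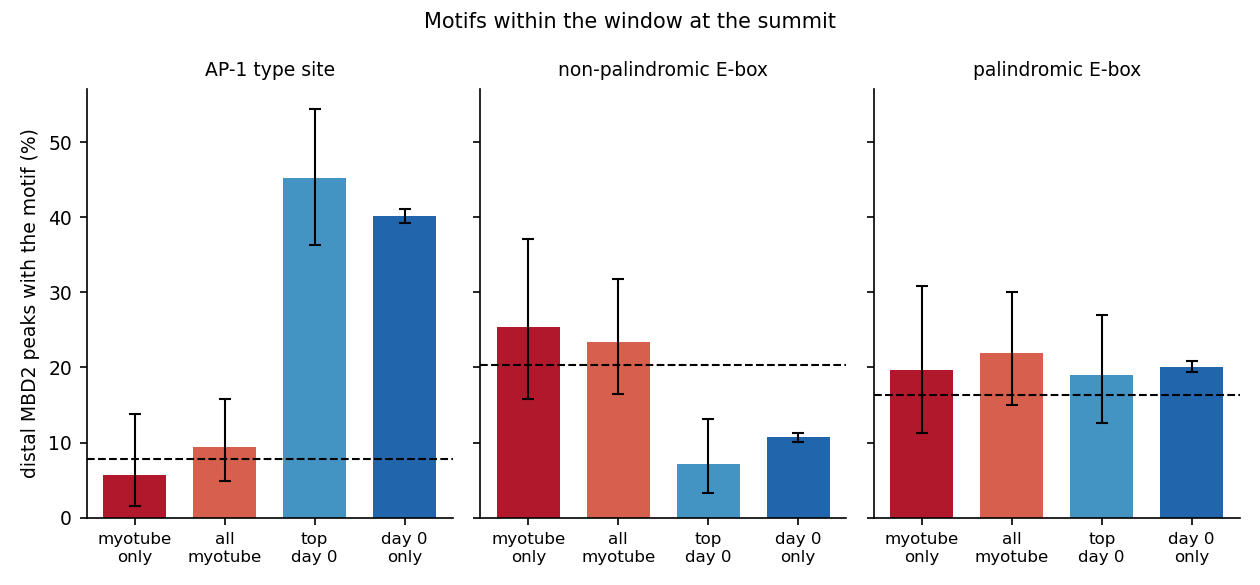
Share of distal MBD2 peaks (vertical axis, percent) with the AP-1 type pattern TGANTCA (left), the E-box that is not a palindrome (middle) or the palindromic E-box (right) in the window at the summit. Bars are myotube-only peaks, all 128 distal myotube peaks, the 126 distal peaks among the 261 day 0 peaks of highest fold and distal day 0-only peaks, with 95% intervals; the dashed line is the share of RefSeq promoter windows.

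Shared peaks carried the strongest myotube MBD2 signals and lay most often at strong day 0 sites. The highest myotube fold, 13.4, was at an intergenic site 55780 bp before Cdc42bpa with a day 0 fold of 21.2, and a second peak beside it had 8.95. Slc25a25, a mitochondrial ATP-magnesium/phosphate carrier, had 10.7 in myotubes and 56.1 at day 0, and Cnot3, a subunit of the CCR4-NOT deadenylase, 9.65 in myotubes and 85.3 at day 0. Kat7, a histone acetyltransferase, had 9.46 in myotubes and 16.1 at day 0, and Tomm40, the pore of the mitochondrial outer membrane translocase, 9.11 in myotubes and 87.5 at day 0. Slc25a25 and Tomm40 had MBD2 peaks in all 4 states. The rest of the 10 lay near Igbp1b (9.01), Olfr769 (8.57), Mchr1 and Sirt4 (8.45 each, a value that Slc35f5 tied). Both folds of a shared peak come from the same stretch of genome, and over the 147 shared peaks the Spearman correlation of myotube with day 0 fold was 0.246.

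Of the 14919 day 0 peaks, 145 (0.972%, interval 0.821 to 1.14) overlapped a myotube peak. Among the 50 day 0 peaks of highest fold it was 19 (38.0%, 24.7 to 52.8), among the 261 highest 33 (12.6%, 8.87 to 17.3), and in the highest of 5 equal groups of all day 0 peaks 87 of 2984 (2.92%). In the other 4 groups the share lay between 0.302% and 0.637%. Some of the strongest day 0 promoters had no myotube call. The promoter shared by Mylpf, the fast-muscle regulatory light chain of myosin, and Tbc1d10b had a day 0 fold of 96.0 and 43.4 at day 1, with no peak in myotubes and 9.25 in reserve cells, while its H3K4me3 fold was 40.9 in myotubes and 82.1 at day 0. Next were Sp2 (93.4), Creb3l2 (69.1), Eif2ak3 (66.0), which encodes the stress kinase PERK, Snord118 (65.0), Ankrd54 (61.8), the T-cell receptor segments Traj5 and Traj6 (59.6), Wbp1 (58.1), Spag7 (54.7) and the promoter of Aldh6a1 and Lin52 (54.4). Among these 10, Snord118 had H3K4me3 at day 0 and not in myotubes, Traj5 and Traj6 had it in neither, and the other 8 carried it in both.

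**Figure D5:**
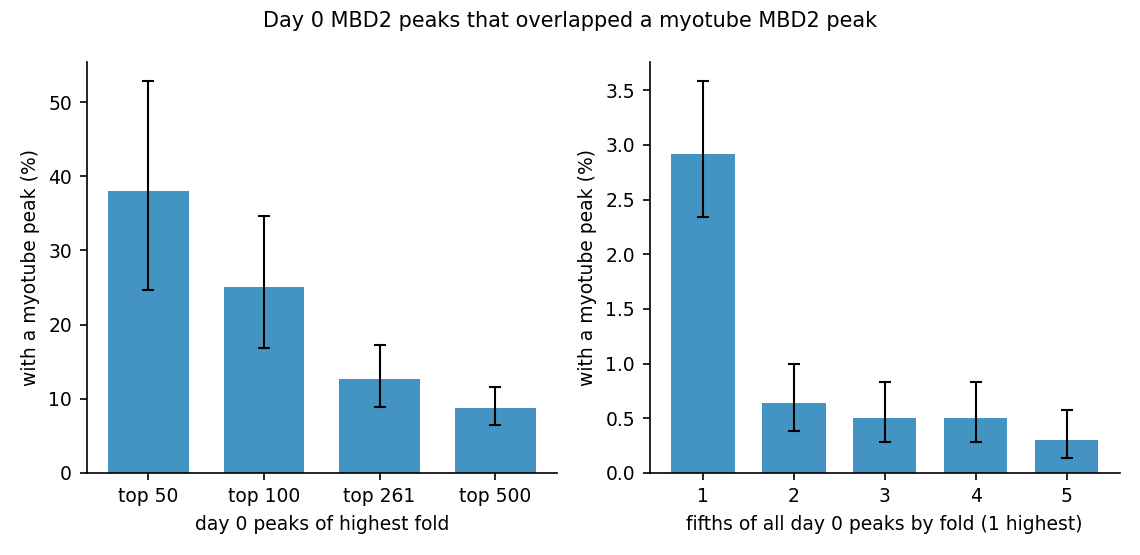
Share of day 0 MBD2 peaks (vertical axis, percent, with 95% intervals) that overlapped a day 5 myotube MBD2 peak: at the left among the 50, 100, 261 and 500 day 0 peaks of highest fold, at the right in 5 equal groups of all day 0 peaks by fold. The share is 38.0% among the 50 highest and 0.302% in the lowest group; the 2 panels have different vertical scales.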

How the data were processed

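The submitters' processing notes name Trim Galore, Bowtie2 with mm10, SAMtools and MACS2. The sources used here give no versions or settings and do not say whether IgG served as control. Each list belongs to 1 library. The deposited pileup is a signal, the fragments over the summit. Per the file headers, the deposited fold enrichment is pileup over background, a ratio. The deposited −log10 q-value served only as a filter in an alternative, and the deposited −log10 p-value was not used. These values are the authors'.

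The local background was computed as (pileup + 1)/fold − 1, which takes 1 as added to both parts of the deposited ratio. With it, 26 myotube and 22 day 0 peaks above 10 fragments per base were left out. Overlaps, CpG and motifs were computed in Python 3.11.15 with pandas 2.3.3, scipy 1.17.1 and pysam 0.24.0, and overlaps were tested on simulated data against bedtools 2.31.1, which also gave 114 unmatched myotube peaks. H3K4me3 lists were used whole. Genes came from GENCODE M21 basic and sequence from RefSeq's GRCm38.p6, the assembly of mm10. Depth is unknown, since the sources used here hold no read totals.

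The members, the 10 gene lists and the naming rule were chosen with earlier results of these data known. The rule named up to 30 myotube-only promoter peaks by fold, 5 distal myotube-only peaks, 10 shared peaks, 10 day 0-only promoter peaks and listed genes with a myotube-only promoter peak, and other genes were named after their values were seen. The text leaves out 1 promoter peak that the rule would name, which is not reported here. Each group has 1 library, so no test was run. The alternatives changed the background limit, the overlap, the q threshold, the number of peaks, the promoter window and the CpG window.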

Additional observations from a re-analysis of the deposited data

Results flagged for a closer look

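The background limit left out 26 myotube MBD2 peaks, which no comparison above uses. Their summit pileups ran between 108 and 61010 fragments, far above the 30 of the highest myotube peak kept. Local backgrounds were 38.5 or more and folds were low, 1.40 to 2.80, so a high pileup here came with a low ratio. What gave rise to these pileups was not tested. The same limit left out 22 MBD2 peaks at day 0, 27 at day 1 and 42 in reserve cells. Of the 26, 16 lay between chromosome 9 positions 3000264 and 3038253 of mm10, and 6 overlapped a day 0 peak of any background.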

How the results depend on the processing

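No paired analysis was possible because each group has 1 library. Over 11 alternatives and 70 recomputed values, 56 stayed within 1.5 times (counts) or within the 95% interval of the reported value, and 14 did not. The number of myotube-only peaks, 114, was 64 with a −log10 q of at least 3 in both lists, 58 with it in the myotube list only and 228 when the day 0 list was reduced to its 261 peaks of highest fold; the genes with such a promoter peak, 52, were then 32, 27 and 125. The share of day 0 peaks with a myotube peak, 0.972%, was 0.817%, 0.657% and 12.6% under those settings, 1.18% when a gap of up to 1000 bp counted as matched and 0.362% when 50% of the day 0 peak had to be covered. Without a background limit, 61.9% of myotube-only peaks overlapped myotube H3K4me3, against 72.8% with it. The share of day 0-only peaks with TGANTCA, 35.3%, was 37.4% with the q threshold in both lists and 29.4% at equal peak numbers; that of myotube-only peaks, 7.89%, stayed between 6.72% and 9.21%, both added after seeing the data. The promoter share stayed between 32.5% and 44.3%, and that of H3K4me3 of myotubes but not of day 0 between 21.1% and 32.6%. The count of myotube-only peaks thus depends on the threshold of the myotube list and on how deep the day 0 list reaches, and with 1 library a group neither depth nor library quality can be told apart from the cell state.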
